A study of Argopecten irradians irradians with 6 samples.

Results

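The miRNAs described here belong to 6 families in the number range miR-1984 to miR-1994, leaving out miR-1985 and miR-1993: miR-1986, miR-1989, miR-1990, miR-1991, miR-1992 and miR-1994. They were chosen by family number, with earlier results of these data known, as rows with at least 1 count in any library. The rule found 21 of the 5446 rows of the count table, and after rows with identical counts in a family were merged, 17 of 1231 rows remained. The numbers miR-1984, miR-1987 and miR-1988 had no row and were not analysed here. The source was the adductor, the shell-closing muscle, of bay scallops (Argopecten irradians irradians), from which small RNAs were sequenced. The white group was the white muscle of Bohai Red scallops and the orange group the orange muscle of QN Orange scallops, with 3 libraries each. The labels name no treatment, age or further genotype. Every library was a pool of 3 muscles, out of 9 collected for each strain, so colour and strain cannot be told apart and the errors given are the spread between pools. The series is concerned with carotenoids in the orange muscle.

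A miRNA is cut from the stem of a hairpin-shaped precursor, and either strand of the stem, named 5p or 3p after the precursor's arm, can be loaded into an Argonaute protein to repress messenger RNAs. These families carry names given in molluscs, annelids and ribbon worms, which belong to the lophotrochozoans. The prefixes are those of the limpet Lottia gigantea (lgi), the abalone Haliotis rufescens (hru), the sea slug Melibe leonina (mle), the annelid Capitella teleta (cte) and the ribbon worm Cerebratulus lacteus (cla). A row is therefore a name from another animal under which scallop reads were counted, and the same reads can be counted under several names.

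The count totals of 85674751 to 152002629 per library repeat reads over names. Taking only the most abundant row of each family, the libraries held 2092825 to 4001516 counts, and levels are given below as parts per 1000000 (ppm) of that sum, with no length term. The columns of the table are named by letters, B and G, read as Bohai Red and QN Orange. This reading is an inference, and every direction given here rests on it. The deposited TPM table has further columns named BHR, BH and M, of which BHR could also stand for Bohai Red. White replicate 1 stood apart from the other white libraries. Its miRNAs of the epithelial and sensory list (miR-8, miR-183, miR-96 and miR-263) were 6.86-fold higher in sum, and in 10 of 142 tested families it was at least 10-fold above the mean of white replicates 2 and 3. The 142 comprise 64 named families and 78 predicted scallop loci, and shares over all tested families include both. Some predicted loci have identical counts, such as Contig329_12472 and Contig329_12474 among the 10. The results below are given with and without white replicate 1.

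All 6 families had counts in both groups, at low levels outside white replicate 1, and miR-1986 had no more than 2 counts under any name in an orange library. Their most abundant rows together made up 0.537% of the sum in white replicate 1, 0.0153% in each of white replicates 2 and 3, and 0.0124% to 0.0198% of it in orange muscle. By group median the most abundant was miR-1990, although miR-1992 exceeded it in orange replicate 1, with 207 against 169 counts. miR-1990 held 93.5% of these counts in white replicate 1 and 34.9% to 67.3% in the other 5 libraries. Its rank among the 137 named families with a count was 13 in white replicate 1 and 31 to 41 elsewhere. In bulk muscle, fewer cells of a type and less RNA per cell cannot be told apart.

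By the group medians, the order of levels in white muscle was miR-1990 at 92.8 ppm, miR-1992 at 40.7 ppm, miR-1991 at 14.8 ppm, miR-1994 at 9.16 ppm, miR-1989 at 4.10 ppm and miR-1986 at 1.89 ppm. The ranges of miR-1990 and miR-1992 did not overlap, nor did those of miR-1992 and miR-1991, while every lower pair of neighbours overlapped. In orange muscle the order was miR-1990 at 57.8 ppm, miR-1992 at 25.8 ppm, miR-1991 at 13.0 ppm, miR-1989 at 12.7 ppm, miR-1994 at 8.25 ppm and miR-1986 at 0.478 ppm. There the neighbours miR-1992 and miR-1991, and miR-1994 and miR-1986, did not overlap, while the other neighbours did. The plot of levels shows that the families separate into 3 that are far higher in white replicate 1 and 3 that are not.

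**Figure D1:**
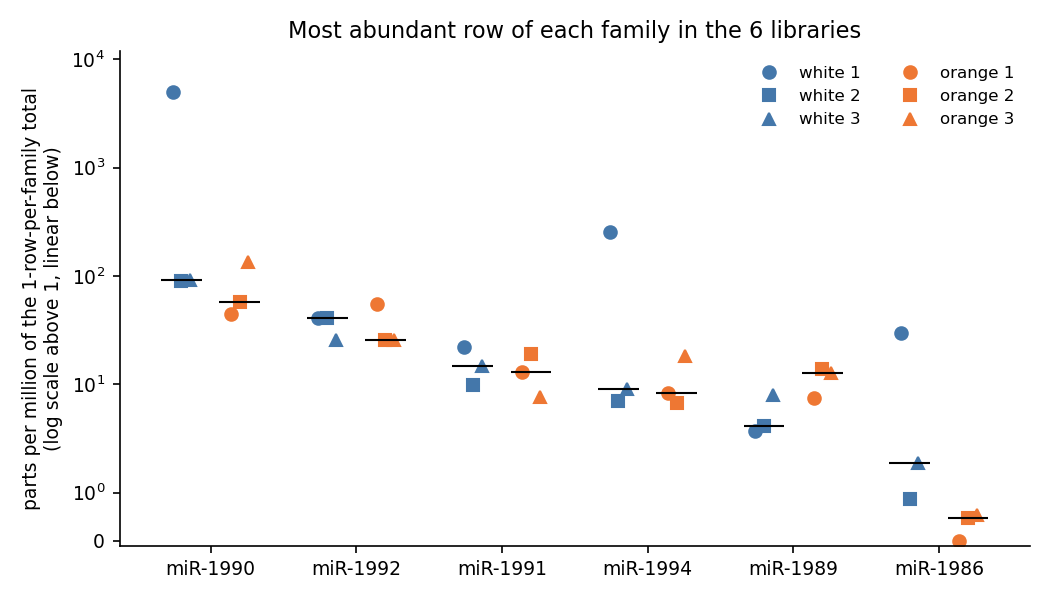
Level of the most abundant row of each of the 6 families in each library, in parts per 1000000 (ppm) of the sum over 1 row per family (log scale above 1, linear below). Points are libraries, shaped by replicate number, and bars are group medians. White replicate 1 lies at 5022 ppm for miR-1990, 254 ppm for miR-1994 and 29.7 ppm for miR-1986, far above every other library.

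Of miR-1990, the row mle-miR-1990-3p held nearly all counts. It had 20097 counts in white replicate 1, 308 in white replicate 2 and 294 in white replicate 3, against 169, 121 and 493 in orange replicates 1 to 3. White replicate 1 was thus the only library with more than 493 counts, and the other white libraries lay inside the orange range. The other strand, mle-miR-1990-5p, shared its counts exactly with hru-miR-1990 and lgi-miR-1990, which carry no arm in their names. Its counts were 67, 2 and 0 across white replicates 1 to 3, and 5, 2 and 9 across orange replicates 1 to 3. The 0 in white replicate 3 allows a level of up to 0.947 ppm (3 counts; counting error only). Both strands were therefore high in the same library.

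The 5p strand made up 0.332% of the miR-1990 counts in white replicate 1 (95% exact binomial interval 0.258% to 0.422%), 0.645% in white replicate 2 (0.0782% to 2.31%) and 0% in white replicate 3 (up to 1.25%). In orange replicates 1 to 3 it made up 2.87% (0.939% to 6.58%), 1.63% (0.198% to 5.75%) and 1.79% (0.823% to 3.38%). Every orange library lay above every white one, but the intervals of white replicates 2 and 3 overlapped those of all 3 orange libraries. The 3p share was 97.9% ± 0.677 for orange against 99.7% ± 0.323 for white muscle (SD, n = 3), a difference of -1.77 percentage points, with an exact two-sided permutation p of 0.1, which is the lowest p reachable with 3 libraries a group.

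miR-1994 was the second family that was high in white replicate 1. Its most abundant row, lgi-miR-1994a, had 1016 counts there, 24 and 29 counts in white replicates 2 and 3, and 31, 14 and 67 counts in orange replicates 1 to 3. The row mle-miR-1994a-3p held 86.2% to 100% as many counts as lgi-miR-1994a in every library, so these names may largely count the same reads. The b form, lgi-miR-1994b, had 389, 7 and 14 counts across white replicates 1 to 3, and 2, 3 and 24 counts across orange replicates 1 to 3. It amounted to 38.3%, 29.2% and 48.3% of the a form in the white libraries and to 6.45%, 21.4% and 35.8% in the orange ones, ranges that overlapped. The rows cla-miR-1994 and cte-miR-1994 had 233 and 276 counts in white replicate 1 and at most 17 in any other library, and mle-miR-1994b-3p had 3 counts in white replicate 1 and none elsewhere.

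miR-1986 showed the same excess at lower counts. The row lgi-miR-1986 had 119 counts in white replicate 1, 3 and 6 in white replicates 2 and 3, and 0, 1 and 2 in orange replicates 1 to 3. The merged row of hru-miR-1986 and mle-miR-1986-3p, the only one that names an arm, had 106, 2 and 6 counts in the white libraries and the same 0, 1 and 2 in the orange ones. The orange libraries were at or under the 3 counts that a count of 0 allows, so no difference is given, and the family did not pass the filter on low counts. For orange replicate 1 the 0 allows up to 0.798 ppm.

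In counts per 1000000 of the TMM-scaled family totals (CPM), white replicate 1 was 55.7-fold above the mean of white replicates 2 and 3 for miR-1990, 33.2-fold for miR-1994 and 22.1-fold for miR-1986. Over all 142 tested families the median of this fold was 1.12, and miR-1990 ranked 2 and miR-1994 ranked 4. The families beside them in that order were miR-10, which is encoded in Hox clusters, at 77.4-fold, and miR-278, which affects energy balance in Drosophila, at 47.5-fold. For miR-1989, miR-1991 and miR-1992 the folds were 0.643, 1.54 and 1.24. Orange replicate 1 showed no such excess, with 0.439-fold for miR-1990 and 0.50-fold for miR-1994 against the mean of orange replicates 2 and 3. Within the orange group miR-1990 and miR-1994 were instead highest in orange replicate 3, at 2.65-fold and 2.96-fold the mean of orange replicates 1 and 2.

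The marker lists moved differently. All 4 families of the epithelial and sensory list had counts in every library, and their summed level ran from 219 to 1532 CPM in white and from 351 to 999 CPM in orange muscle. The list was 6.86-fold above the others of the group for white replicate 1 and 2.47-fold above them for orange replicate 1. In orange replicates 1 to 3 miR-1990 was at 3.96, 5.52 and 12.6 CPM and miR-1994 at 1.55, 1.57 and 4.63 CPM. The muscle miRNAs miR-1 and miR-133 summed to 0.948-fold in white replicate 1. The gut list ran from 493 to 658 CPM in white and from 678 to 1784 CPM in orange muscle, with all 5 families counted in every library, and miR-34 of ciliated cells from 126 to 161 CPM and from 208 to 297 CPM. Of the gut list 1 of 4 tested families was called higher in orange, where 5.63% of all tested families were, and 1 lay below 0. That one was miR-216 (log2 difference -0.74), at 389 to 627 CPM in white and 242 to 409 CPM in orange muscle. The part of any of these cell types in the levels of miR-1990, miR-1994 and miR-1986 was not tested.

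**Figure D2:**
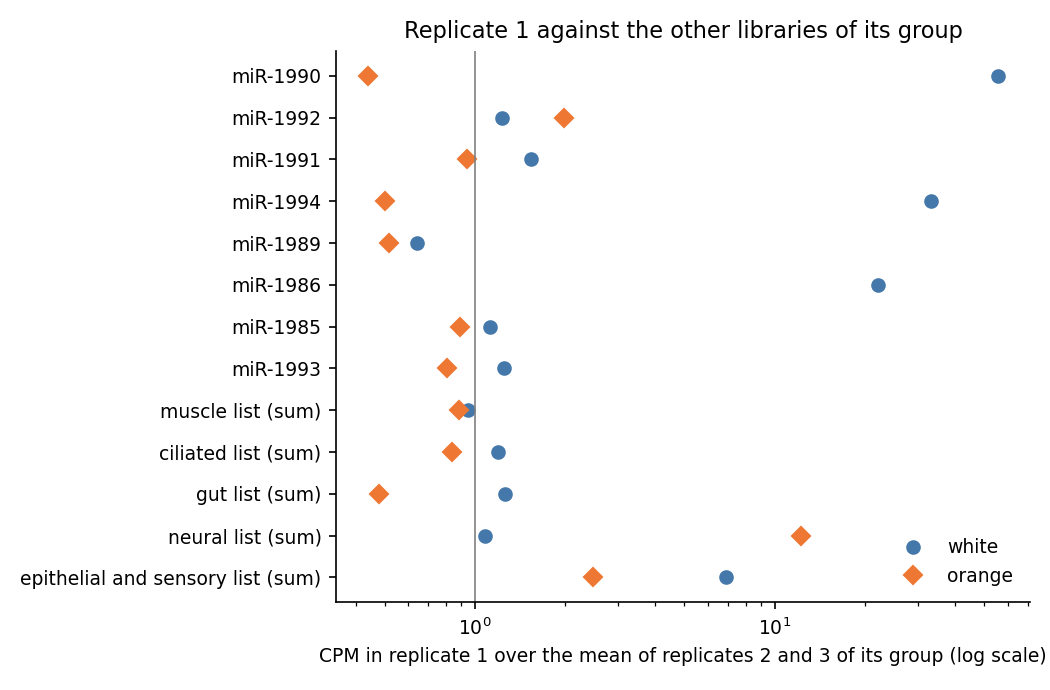
CPM in replicate 1 divided by the mean of replicates 2 and 3 of the same group, on a log axis, for the 6 families, for miR-1985 and miR-1993, and for the summed families of 5 marker lists. Circles are white and diamonds orange muscle, and the orange point of miR-1986, at 0 counts, cannot be drawn. miR-1990, miR-1994 and miR-1986 lie at 22.1-fold to 55.7-fold in white muscle, and the neural list at 12.2-fold in orange muscle, where most of its sum is miR-124.

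The remaining 3 families had no library of this kind. miR-1989 was counted under cte-miR-1989 and mle-miR-1989b-5p with identical values, 15, 14 and 25 counts in white replicates 1 to 3 and 28, 29 and 47 counts in orange replicates 1 to 3. By CPM, which takes account of the smaller orange replicate 2, the levels were 0.304, 0.343 and 0.604 in white and 0.638, 1.30 and 1.18 in orange muscle. On this TMM-scaled measure all 3 orange libraries lay above all 3 white ones, by a narrow margin between white replicate 3 and orange replicate 1. In ppm these 2 libraries changed order, at 7.89 in white replicate 3 and 7.45 in orange replicate 1, and so did their deposited TPM, at 0.2002 and 0.1924, so that the groups overlapped there.

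miR-1991 was counted in 2 rows with different patterns. The row hru-miR-1991, which names no arm, had 89, 34 and 47 counts in white replicates 1 to 3 and 49, 40 and 28 counts in orange replicates 1 to 3, with overlapping groups. The row mle-miR-1991-3p had 17 counts in each white library and 8, 3 and 5 counts in orange replicates 1 to 3, so that the groups did not overlap. The 3p row held 16.0%, 33.3% and 26.6% of the counts of both rows across white replicates 1 to 3, against 14.04%, 6.98% and 15.2% across orange replicates 1 to 3. The mean share was 12.1% ± 4.43 for orange against 25.3% ± 8.72 for white muscle (SD, n = 3; exact two-sided permutation p = 0.1, the smallest possible), a comparison chosen after the values were seen. With so few counts, the 95% exact binomial interval of white replicate 1, 9.63% to 24.4%, covered the values of orange replicates 1 and 3. The share and its interval take the 2 rows as separate reads. Whether the rows count some of the same reads was not tested, so the share need not be an arm share.

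miR-1992 was counted almost alike under lgi-miR-1992 and mle-miR-1992-3p. The row lgi-miR-1992 had 163, 139 and 82 counts in white replicates 1 to 3 and 207, 54 and 95 counts in orange replicates 1 to 3, and mle-miR-1992-3p differed from it by at most 2 counts in any library. The annelid and ribbon worm names, cte-miR-1992 and cla-miR-1992, had at most 2 counts in any library. The groups overlapped, and the highest library was orange replicate 1, at 1.97-fold the mean of orange replicates 2 and 3 by CPM. In that library the neural list (miR-124, miR-9, miR-219, miR-137 and miR-153) summed to 634 CPM, against 65.0 and 39.0 CPM in orange replicates 2 and 3 and 88.4 to 96.7 CPM in the white libraries. Most of that sum was miR-124, at 545 CPM, and miR-137 was also highest there, at 8.95 CPM. In the same library miR-153, at 56.8 CPM, lay below every white library (65.3 to 73.0 CPM), and miR-219 was at 0. All 5 neural families had a count somewhere, miR-219 and miR-137 were at 0 in at least 1 library, and the part of neural tissue in miR-1992 was not tested.

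The comparison between orange and white muscle was fitted over all families with edgeR's quasi-likelihood test, after the distinct rows of each family were summed. Of the 6 families 5 passed the filter on low counts, and 0 of 5 passed the threshold of 0.05, where 10.6% of all 142 tested families did (8 higher and 7 lower in orange muscle, 4 and 6 with DESeq2 size factors, 6 and 11 with library totals). Left out of this set, miR-1985 and miR-1993 of the same number range both passed (edgeR adjusted p = 0.0131 and 0.0164). The 0 of 5 therefore depends on that choice. At an unadjusted p under 0.05 there was 1 of the 5, miR-1989, where 27.5% of all tested families had one. DESeq2 called 0 of the 5, where it called 30 of all 142 tested families, and it gave no adjusted p for miR-1990 and miR-1994. The median log2 difference of all tested families was 0.12.

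Mean levels of miR-1989 were 1.04 ± 0.352 CPM for orange against 0.417 ± 0.163 CPM for white muscle (SD, n = 3), and the log2 difference was 1.31 with an SE of 0.515 (edgeR adjusted p = 0.178). It was the 1 tested family of the 5 whose groups did not overlap in TMM-scaled CPM, as for 37.3% of all tested families, and in ppm and deposited TPM its groups overlapped. The difference was above 0 in all 16 other settings tried, from 0.99 to 1.76, with adjusted p from 0.181 to 0.594. It lay 1.18 above the median family with all libraries. Without white replicate 1, where that median was 0.78, it lay 0.45 above it. As a single row miR-1989 had the same counts as the family, and it did not pass in edgeR (adjusted p = 0.179). DESeq2 gave the family a log2 difference of 1.02 (adjusted p = 0.242) with its own size factors. For the row, with the family table's TMM scaling and adjustment over rows, DESeq2 gave 1.31 (adjusted p = 0.0400).

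For miR-1990 the means were 7.35 ± 4.57 CPM for orange against 141 ± 232 CPM for white muscle, and the log2 difference was -4.26 with an SE of 1.81 (edgeR adjusted p = 0.187). For miR-1994 they were 2.58 ± 1.77 CPM against 20.6 ± 32.6 CPM, and the log2 difference was -2.99 with an SE of 1.57 (edgeR adjusted p = 0.263). In both, the white SD exceeded the mean, because of white replicate 1. Without that library the differences turned to 0.11 (SE 0.616) for miR-1990 and 0.67 (SE 0.702) for miR-1994, in a fit whose median family lay at 0.78, so that both were then below the median by 0.67 and 0.11. Without both libraries numbered 1 they were 0.16 and 0.68, against a median of 0.16. With no filter on low counts both passed the threshold (adjusted p = 2.16e-09 for miR-1990 and 0.00143 for miR-1994), with white replicate 1 included. Their main rows did not pass when rows were fitted with no filter. There mle-miR-1990-3p was at -4.29 (SE 1.69, edgeR adjusted p = 0.322) and lgi-miR-1994a at -2.86 (SE 1.45, edgeR adjusted p = 0.399).

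Levels of miR-1991 were 1.35 ± 0.554 CPM for orange against 1.65 ± 0.459 CPM for white muscle, and those of miR-1992 were 6.33 ± 2.69 CPM against 5.81 ± 1.60 CPM. The log2 difference was -0.29 with an SE of 0.507 for miR-1991 (edgeR adjusted p = 0.711) and 0.12 with an SE of 0.477 for miR-1992 (edgeR adjusted p = 0.891). For both, the difference was smaller than its SE, and the sign of miR-1992 turned under DESeq2 size factors (-0.16), library totals (-0.13) and upper-quartile factors (-0.022).

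**Figure D3:**
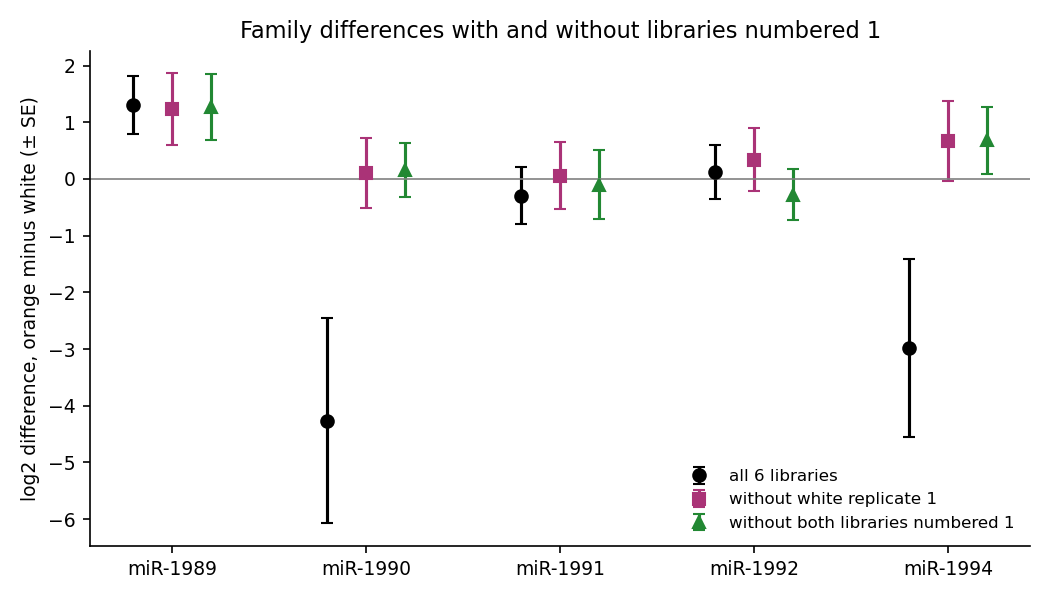
Log2 difference, orange minus white, of the 5 tested families, with error bars of 1 SE, from edgeR over all 6 libraries (circles), without white replicate 1 (squares) and without both libraries numbered 1 (triangles). miR-1990 and miR-1994 go from -4.26 and -2.99 to values above 0, while miR-1989 stays at 1.23 to 1.31. Without white replicate 1 the median of all tested families was 0.78. Minus that median, miR-1990, miR-1994 and miR-1989 were at -0.67, -0.11 and 0.45.

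Fitted as single merged rows, 10 of the 17 rows passed the filter and 0 of 10 passed the threshold, where 10.1% of all 656 tested rows did, while DESeq2 called 2 of the 10 and 25.6% of all tested rows. DESeq2 gave no adjusted p for mle-miR-1990-3p, lgi-miR-1994a and lgi-miR-1994b. Rows of miR-1985 and miR-1993 were again left out of the 10. At an unadjusted p under 0.05 there were 2, cte-miR-1989 and mle-miR-1991-3p (25.6% of all tested rows), which were also the 2 tested rows without overlap between the groups in TMM-scaled CPM, where 36.1% of all tested rows did not overlap. In ppm and deposited TPM the groups of cte-miR-1989 overlapped. The lowest adjusted p belonged to mle-miR-1991-3p, whose log2 difference was -1.38 with an SE of 0.361 (edgeR adjusted p = 0.0815). It stayed below 0 in all 14 other settings, from -1.95 to -1.22 (adjusted p from 0.0365 to 0.352), and passed with library totals (adjusted p = 0.0402), where 12.5% of all rows were called, and in DESeq2 (adjusted p = 0.0365). The row hru-miR-1991 of the same family was at -0.07 (SE 0.509, adjusted p = 0.946). For mle-miR-1990-3p the log2 difference was -4.29 (SE 1.84, adjusted p = 0.207), for lgi-miR-1994a -2.86 (SE 1.55, adjusted p = 0.296) and for lgi-miR-1994b -3.40 (SE 1.78, adjusted p = 0.275). Without white replicate 1 these 3 were 0.084, 0.75 and 0.16, in a fit whose median row lay at 0.67, against 0.13 with all libraries.

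A ratio of 2 families in the same library does not depend on how libraries are scaled to each other. Of the 15 ratios among the most abundant rows of the 6 families, 6 (40.0%) did not overlap between the groups, where 33.6% of the 10011 ratios among all tested families did not. Each of the 6 had an exact two-sided permutation p = 0.1 and an adjusted p = 0.25 over the 15. In 3 of them miR-1986 was a term, with 0 to 2 orange counts, so that the added 0.5 largely sets their value, and of the 10 ratios without miR-1986 3 did not overlap. The ratio of mle-miR-1990-3p to lgi-miR-1994a was 19.8, 12.8 and 10.1 across white replicates 1 to 3, against 5.45, 8.64 and 7.36 across orange replicates 1 to 3. For these rows every white library thus lay above every orange library, white replicate 1 highest. With the distinct rows of each family summed, the ratio was 7.03, 5.34 and 3.42 across the white and 2.56, 3.51 and 2.71 across the orange libraries, so that white replicate 3 fell below orange replicate 2 and the groups overlapped (log2 difference -0.80, exact two-sided permutation p = 0.2). On the log2 scale, with 0.5 added to each count, the ratio was 2.79 ± 0.33 for orange against 3.76 ± 0.50 for white muscle (SD, n = 3), a difference of -0.97, and without white replicate 1 it was -0.70. The log2 ratio of miR-1989 to miR-1990 was higher in orange muscle by 3.43, and by 1.31 without white replicate 1. These 2 ratios were chosen after the values were seen.

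**Figure D4:**
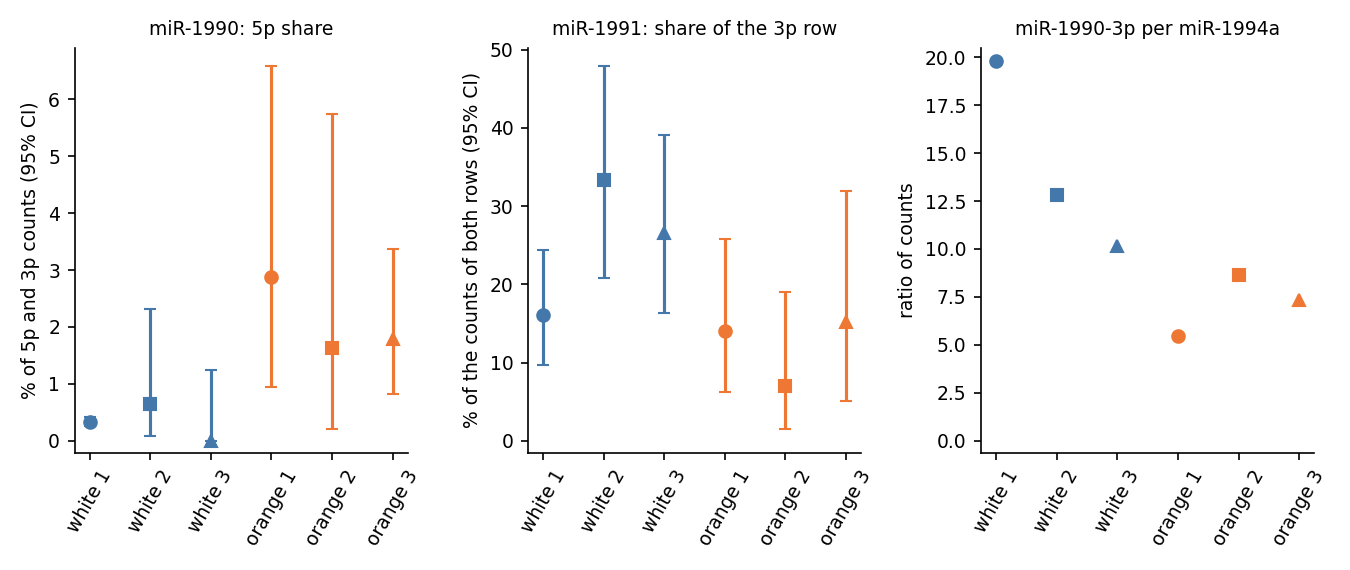
Values that need no scaling, by library: the 5p share of miR-1990 counts and the share of the 3p row of miR-1991, both in percent with 95% exact binomial intervals, and the ratio of mle-miR-1990-3p to lgi-miR-1994a counts. Blue points are white and orange points orange libraries, and in all 3 panels the groups' points do not overlap. Of the ratios among all tested families 33.6% did not overlap, and shares within other families were not compared. The miR-1991 share and the ratio were chosen after the values were seen. With the distinct rows of each family summed, the groups overlapped in the ratio. The rows of miR-1991 may share reads.

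The families most like each member were taken as those with the highest Pearson r of log2(CPM + 1) over the 6 libraries, among the tested families with a name. For miR-1990 these were miR-1994 (r = 0.99), miR-10 (0.97), miR-12 (0.92), miR-193 (0.91) and miR-278 (0.86). Over the 5 libraries other than white replicate 1, r was 0.82 with miR-1994, -0.12 with miR-10, -0.04 with miR-12, 0.44 with miR-193 and -0.18 with miR-278. For miR-1994 the same families followed miR-1990, in the order miR-10 (0.97), miR-278 (0.89), miR-193 (0.88) and miR-12 (0.88), and r without white replicate 1 was 0.44 with miR-10 and 0.24 with miR-278. For miR-1986 they were miR-1990 (0.98), miR-10 (0.98), miR-1994 (0.96), miR-12 (0.96) and miR-193 (0.90), falling to 0.38, -0.63, 0.12, 0.49 and 0.36. The likeness of miR-1990 to miR-1994 was the one among these that stayed above 0.5 without that library. Of the 5 libraries left, orange replicate 3 was the highest for both. It was at 12.6 CPM against 3.96 to 7.60 CPM for miR-1990, and at 4.63 CPM against 1.42 to 2.08 CPM for miR-1994.

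For miR-1989 the most alike were miR-46 (r = 0.91), miR-281 (0.91), miR-1260 (0.89), miR-33 (0.86) and miR-98 (0.85), and r was 0.79 to 0.87 without white replicate 1. miR-46 and miR-281 may be counts of the same reads. For miR-1992 they were miR-137 (0.93), miR-981 (0.86), miR-745 (0.85), miR-9 (0.82) and miR-29 (0.82), of which miR-137 and miR-9 are in the neural list. For miR-1991 they were miR-12 (0.78), miR-216 (0.74), miR-1 (0.67), miR-153 (0.66) and miR-190 (0.63). These r values rest on 6 libraries, which share their scaling.

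Of the neighbouring numbers, miR-1985 was at 687 ± 50.3 CPM for orange against 1689 ± 180 CPM for white muscle, and miR-1993 at 4.26 ± 1.13 and 31.05 ± 6.27 CPM. White replicate 1 was 1.13-fold and 1.25-fold above the other white libraries for these. In the list of 19 other protostome families, 16 had a count and 15 were tested. There 0 rose, where 5.63% of all tested families did, and 3 fell (miR-1985, miR-1993 and miR-1175), where 4.93% did. The list, with miR-1985 and miR-1993 in it, was made with earlier results of these data known, so its counts and median only describe it. Of the list 12 of 15 lay below 0, and the median log2 difference was -0.57, against 0.12 for all families. Without white replicate 2 no family of any kind passed.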

How the data were processed

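Whole-number counts per miRNA name were deposited by the authors without normalization, and a deposited TPM table held each count scaled to a column sum of 1000000, matched within 5e-05, with no length term. Trimming, aligner and miRNA reference are not given in the sources used here. The TPM table has 9 more per-sample columns (named BHR, BH and M), which were not used. The sources used here gave no mature sequences, so none are printed. Families were read from the names after the species prefix. Rows with identical counts in a family were merged and the distinct rows summed, which can still repeat reads that similar names share, so adjusted p-values lack their nominal meaning. Differences, orange minus white, were fitted with edgeR 4.0.16 in R 4.3.3 (TMM, filterByExpr by group, glmQLFit with robust = TRUE, glmQLFTest) and Benjamini-Hochberg adjustment at 0.05. The SE is the log2 difference divided by the square root of F. Rows used the family table's totals and TMM factors (0.851 to 1.15). DESeq2 1.42.0, other scalings, no filter, other ways to join names, left-out libraries and a replicate block were alternatives. The fit was tested on simulated data with less spread between libraries than here and no library like white replicate 1. That test therefore does not show how the fit handles such a library. Exact permutation tests used SciPy 1.17.1. All members, and for each the 5 most alike named families, are named. The members and lists were chosen with earlier results of these data known. Intervals and floors (3 counts) cover counting error only. Library totals are given in the report, and low counts limit miR-1986, miR-1989 and miR-1991.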

Additional observations from a re-analysis of the deposited data

How the results depend on the processing

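miR-1989 stayed above 0 in all 16 alternatives and passed in none, with log2 differences of 1.15 to 1.76 when 1 library was left out. It lay 1.18 above the median family in the main fit and 0.45 above it without white replicate 1. miR-1990 and miR-1994 ran from -4.88 to 0.11 and from -3.71 to 0.67 without 1 library. They turned above 0 without both libraries numbered 1 (0.16 and 0.68), and passed with no filter (-4.34 and -3.06). Their rows mle-miR-1990-3p, lgi-miR-1994a and lgi-miR-1994b did not pass with no filter. DESeq2 gave miR-1990 and miR-1994 no adjusted p. miR-1991 ran from -0.54 to 0.06 without 1 library, turned to 0.057 without white replicate 1 and to 0.048 with 1 row per family. The median family lay at 0.78 and 0.20 in these 2 fits. miR-1992 ran from -0.28 to 0.39 without 1 library, and was -0.16 with DESeq2 size factors, -0.13 with library totals, -0.022 with upper-quartile factors, -0.066 with no filter, -0.16 in DESeq2, -0.27 without both libraries numbered 1 and -0.28 without orange replicate 1. The number of families called was 15, 34 with no filter, 30 in DESeq2 and 0 to 24 without 1 library (24 when white replicate 1 was left out, 0 for white replicate 2, 1 for white replicate 3 and 4 for orange replicate 1). The number of member rows called out of 10 was 0, 1 with library totals (82 of all 656 rows), 2 in DESeq2 (168 of 656) and 0 without each library in turn. The row lgi-miR-1992 was at -0.15, -0.13, -0.015 and -0.42 with DESeq2 size factors, library totals, upper-quartile factors and the row table's own TMM factors, -0.27 without both libraries numbered 1 and -0.27 to 0.39 without 1 library. Without both libraries numbered 1, hru-miR-1991 was at 0.24, lgi-miR-1994a at 0.73, lgi-miR-1994b at 0.47 and mle-miR-1990-3p at 0.14. Without 1 library these ran from -0.37 to 0.39 (0.39 without white replicate 1, 0.19 without orange replicate 3), -3.44 to 0.75, -4.99 to 0.16 and -4.91 to 0.084. Without white replicate 1 the median row lay at 0.67. The difference in the 3p share of miR-1990 was -2.01 to -1.38 percentage points without 1 library. The alternatives for miR-1991, miR-1992 and the ratios were chosen after seeing the data. For miR-1990 and miR-1994 the sign turned without the library that held most of their counts, and the cause of the other turns was not tested.

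Whether the replicate numbers pair the libraries was not tested. Deviations of same-numbered libraries from their group means correlated at 0.14, 0.08 and 0.18 over families. Those of differently numbered libraries correlated at -0.24 to 0.18. With a replicate block, miR-1990 was at -1.39, miR-1994 at -0.84, miR-1989 at 1.30, miR-1991 at -0.34 and miR-1992 at 0.09, with none called and 10 families called in all.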
